A study of Xenopus laevis with 60 samples.

Results

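RNA-seq was used to compare Xenopus laevis embryos that had received antisense morpholinos (MOs) against both pou5f3.3 and sox3 with embryos that had received a GFP MO, all of them in cycloheximide (CHX) and all from the collection labelled C. The libraries were chosen by their labels alone, 2 CHX pou5f3.3, sox3 MO libraries and 2 CHX GFP MO libraries, which makes 4 of the 60 libraries of the series. The series follows the onset of transcription in this allotetraploid frog, whose L and S subgenomes carry separate copies (homeologs) of most genes. It holds untreated stages, embryos treated with the transcription inhibitor triptolide or with CHX, and several MO combinations.

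The double morphants received 40 ng of pou5f3.3 MO and 40 ng of sox3 MO, against 80 ng of GFP MO in the control embryos. Single morphants of the same collection received 40 ng of pou5f3.3 MO or 40 ng of sox3 MO, each with 40 ng of GFP MO, so the total MO mass was 80 ng in every group, and each single group also had 2 libraries. All 8 libraries of the collection came from embryos bathed in CHX at 500 µg/mL from the beginning of stage 8 and taken at stage 9, at 8 hours post fertilization, with 2 embryos per library. Replicates were sets of embryos of 1 collection, so p-values measure the spread between such sets. The MOs target both homeologs and block translation, so the mRNA levels of their targets do not check the knockdown.

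Pou5f3.3, a POU-domain factor related to mammalian Oct4, and Sox3, a SoxB1 factor, are supplied to the egg as mRNA and protein and bind regulatory DNA of genes that are switched on when the embryonic genome first becomes active. Cycloheximide stops protein synthesis, so a gene that is transcribed in its presence must be served by proteins already in the embryo. Such genes form the first wave of activation, and reads from introns, which are removed as RNA matures, report new transcription even of a gene whose mRNA the egg already stored.

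Each gene was measured as an exon entry, in TPM (transcripts scaled to gene length and to the library total), and where introns were deep enough also as an intron entry, in RPKM (reads scaled to intron length and to the library total). Exon counts were 13631907 and 14245998 in the double morphant libraries and 14065710 and 15589636 in the GFP MO libraries. Intron reads took 0.875% and 0.982% of exon and intron counts in the double morphants, against 1.28% and 1.55% in the GFP MO embryos. The means, 0.929% ± 0.0754 in double morphants and 1.41% ± 0.185 in GFP MO embryos (SD, n = 2 each), did not overlap in their libraries, but an exact two-sided permutation test of 2 against 2 cannot go below the value it gave, p = 0.333. Marker genes of blood, liver and muscle, which a blastula lacks, summed to 0.153 and 0.115 TPM over 13 genes in the double morphants and to 0.206 and 0.573 TPM in the GFP MO embryos. GFP MO replicate 2 stood above replicate 1 in 467 of 622 first-wave exon entries (75.1%, median log2 difference 0.479) and in 2100 of 2941 first-wave intron entries (71.4%, median 0.368), while the same comparison gave 58.0% and 58.1% in the double morphants. Counts are therefore also given without that library.

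The targeted mRNAs were at similar levels in both groups. The mRNA of pou5f3.3.L was at 546 and 554 TPM in double morphants, against 513 and 500 TPM in GFP MO embryos, and that of sox3.L was at 567 and 541 TPM against 477 and 522 TPM. The S copies gave 416 and 410 against 367 and 376 TPM for pou5f3.3.S, and 436 and 440 against 411 and 396 TPM for sox3.S. The log2 differences of the 4 copies, from 0.14 to 0.18, did not pass the test (edgeR's quasi-likelihood test, smallest Benjamini-Hochberg adjusted p = 0.461). Among relatives, sox2.L, the other main SoxB1 gene, was at 16.9 and 18.3 TPM in double morphants, against 39.3 and 40.7 TPM in GFP MO embryos, without overlap. Its log2 difference was −1.16 (SE 0.23, adjusted p = 0.000741), short of the size needed for a call. The maternal factor mRNA pou5f3.2.L was at 146 and 145 TPM in double morphants, against 150 and 156 TPM in GFP MO embryos.

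A gene was called when its exon or intron entry had an adjusted p below 0.05 in edgeR's test and differed by at least 1.5 on the log2 scale. With both MOs, 599 of 27602 genes tested were lower than in GFP MO embryos (2.17%) and 11 were higher (0.0399%). Intron entries carried most of the calls, with 517 of 9916 lower (5.21%) against 160 of 27602 exon entries lower (0.58%). Without GFP MO replicate 2 the number of lower genes was 257, without double MO replicate 1 it was 315, and leaving out GFP MO replicate 1 or double MO replicate 2 gave 679 and 430. No named entry that was called changed sign in any of these fits.

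The genes that fell belonged mostly to the first wave. A gene was classed as first-wave from other collections (A and B) when it was higher in vehicle-treated than in triptolide-treated embryos in both, higher at stage 9 than at stage 5, and higher with CHX than with triptolide. Of the 3199 first-wave genes, 494 were lower in double morphants (15.4%) and 4 were higher, and the share lower was 7.03% without GFP MO replicate 2 and 8.63% without double MO replicate 1. Among first-wave genes under 1 TPM at stage 5 (zygotic), 194 of 765 were lower (25.4%). Among those at or above 1 TPM at stage 5 (maternal), 300 of 2434 were lower (12.3%). Without GFP MO replicate 2 the counts were 92 zygotic and 133 maternal genes, and without double MO replicate 1 they were 103 and 173.

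Exons and introns shared the calls differently in these classes. Of the 194 zygotic first-wave genes that were lower, 99 passed in exons and 150 in introns, 55 of them in both. Of the 300 maternal first-wave genes, 298 passed in introns and 13 in exons. Outside the first wave 105 of 24403 genes were lower (0.43%), and 73 of these were among the 730 genes that were higher with CHX than with triptolide in collection B without being activated in vehicle-treated embryos (10.0%). Genes activated at stage 9 but not with CHX were lower in 14 of 3501 cases (0.4%), and genes that were neither activated nor higher with CHX in 18 of 20172 (0.0892%). By definition, genes of both these classes were not called higher with CHX than with triptolide, which leaves less new RNA that could fall. Their low shares were therefore partly set by how the classes were made. The count outside the first wave was 251 with no filter on low counts and 58 in DESeq2, and it depended on GFP MO replicate 2 and double MO replicate 1, without which it was 32 and 39. It was 49 without double MO replicate 2.

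**Figure D1:**
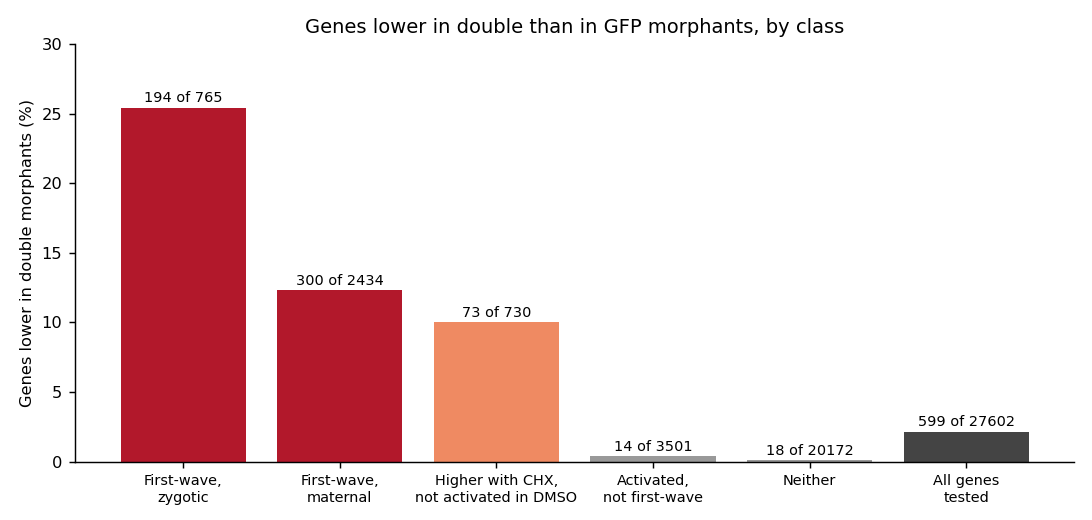
Share of the genes of each class (y axis, in percent) that were lower in double morphants than in GFP MO embryos with CHX in collection C, with counts above the bars. The bars for zygotic (194 of 765) and maternal (300 of 2434) first-wave genes and for genes higher with CHX but not activated in vehicle (73 of 730) stand above the bar for all genes tested (599 of 27602). Genes activated but not first-wave, and genes in neither class, were by definition not called higher with CHX than with triptolide.

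Most first-wave entries were lower, called or not. Over the 2958 first-wave intron entries that were themselves higher with CHX than with triptolide, the median log2 difference of double morphants from GFP MO embryos was −0.819, with quartiles of −1.582 and −0.233, and 2438 (82.4%) were below 0. Over the 627 such exon entries the median was −1.002, with quartiles of −1.983 and −0.321, and 526 (83.9%) were below 0. The medians over all entries were −0.353 for introns and 0.0 for exons, and 62.2% of all introns and 43.7% of all exons were below 0. A floor of 3 counts per library was set where both libraries of a group had no reads. The difference was set to 0 where the other group did not exceed that floor. This gave medians of −0.780 for first-wave introns and −0.823 for first-wave exons, beside −0.194 for all introns and 0.0 for all exons. Both double morphant libraries lay below both GFP MO libraries in 374 of the 627 first-wave exon entries (59.6%), compared with 5343 of all 27602 exon entries (19.4%). For introns this held in 1688 of 2958 first-wave entries (57.1%), compared with 3066 of all 9916 (30.9%).

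Read depth bore on how many of these entries were called. Split by mean count into 3 bins of about equal size, from low to high, 6.3%, 15.0% and 24.3% of first-wave intron entries were called lower, while their median log2 differences were −0.801, −0.776 and −0.875. For exon entries the same 3 bins gave 3.74%, 18.5% and 28.4% called, with medians of −0.859, −0.950 and −1.023. With the floor of 3 counts the lowest bins had medians of −0.643 for introns and −0.427 for exons, while the medians of the other bins were the same with the floor. Without GFP MO replicate 2 the medians over all first-wave entries were −0.617 for introns and −0.707 for exons. In whole embryos, fewer cells that express a gene and less RNA per cell cannot be told apart.

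Genes whose exons fell furthest included regulators of the nervous system, the ectoderm and cell signalling. The neurogenic bHLH factor neurog3.L was at 0.381 and 0.490 TPM in double morphants, against 5.66 and 6.64 TPM in GFP MO embryos. Its log2 difference was −3.76 (SE 0.47, adjusted p = 3.67e-08), and its homeolog neurog3.S, at 1.07 and 0.921 against 4.51 and 5.83 TPM, was lower by −2.35. No library of the double morphants reached a GFP MO library for either copy.

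Hairy and Enhancer-of-split repressors, bHLH proteins that commonly act downstream of Notch, were also among them. The mRNA of hes7.1.L was at 1.27 and 1.23 TPM in double morphants, against 10.1 and 17.4 TPM in GFP MO embryos (log2 −3.43, SE 0.42). That of hes3.L was at 2.63 and 3.32 TPM against 13.9 and 25.1 TPM (log2 −2.70, SE 0.31). The groups did not overlap for either gene, and the adjusted p was 5.07e-08 for hes7.1.L and 8.14e-09 for hes3.L. The forkhead gene foxi4.2.S, of the non-neural ectoderm, was at 2.80 and 2.25 TPM in double morphants and at 13.0 and 24.6 TPM in GFP MO embryos (log2 −2.89, SE 0.30, adjusted p = 7.95e-10).

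Further genes named by the size of their exon fall had other roles. The ligand gene fgf8.S was at 1.40 and 0.677 TPM in double morphants, against 4.69 and 8.29 TPM in GFP MO embryos (log2 −2.64, SE 0.41). The Wnt modulator gene sfrp2.L was at 1.33 and 1.28 TPM against 5.15 and 7.79 TPM (log2 −2.29, SE 0.25), and its homeolog sfrp2.S also fell (log2 −1.81). The hyaluronan synthase gene has1.S (log2 −2.87), the lipid phosphatase gene plpp3.L (log2 −2.64) and the kinase gene sbk1l.L (log2 −2.46) were also lower. For each of these the double morphant and GFP MO libraries did not overlap. The homeologs fgf8.L and sbk1l.S were called lower in exons too. Both calls were lost with DESeq2's scaling (log2 −1.632 and −3.2) and when any 1 double morphant or GFP MO library was left out.

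A phosphatase that activates the kinases of the cell cycle, Cdc25b, was lower from both subgenomes. The exons of cdc25b.S were at 1.42 and 1.64 TPM in double morphants, against 6.18 and 8.86 TPM in GFP MO embryos (log2 −2.28, SE 0.23, adjusted p = 3.16e-10). Those of cdc25b.L were at 3.47 and 4.22 TPM against 12.7 and 19.8 TPM (log2 −2.06, SE 0.18, adjusted p = 3.52e-12). The Ras-like gene rasl11b.L, at 1.74 and 2.83 TPM in double morphants and 8.03 and 14.9 TPM in GFP MO embryos, had a log2 difference of −2.31 that lost its call without GFP MO replicate 2 (adjusted p = 0.172) and without double MO replicate 1 (adjusted p = 0.0543). A gene with no symbol, gene35084, was the most abundant of the exon falls described here, at 43.0 and 38.9 TPM in double morphants and 246 and 238 TPM in GFP MO embryos (log2 −2.54, SE 0.16, adjusted p = 1.07e-16).

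**Figure D2:**
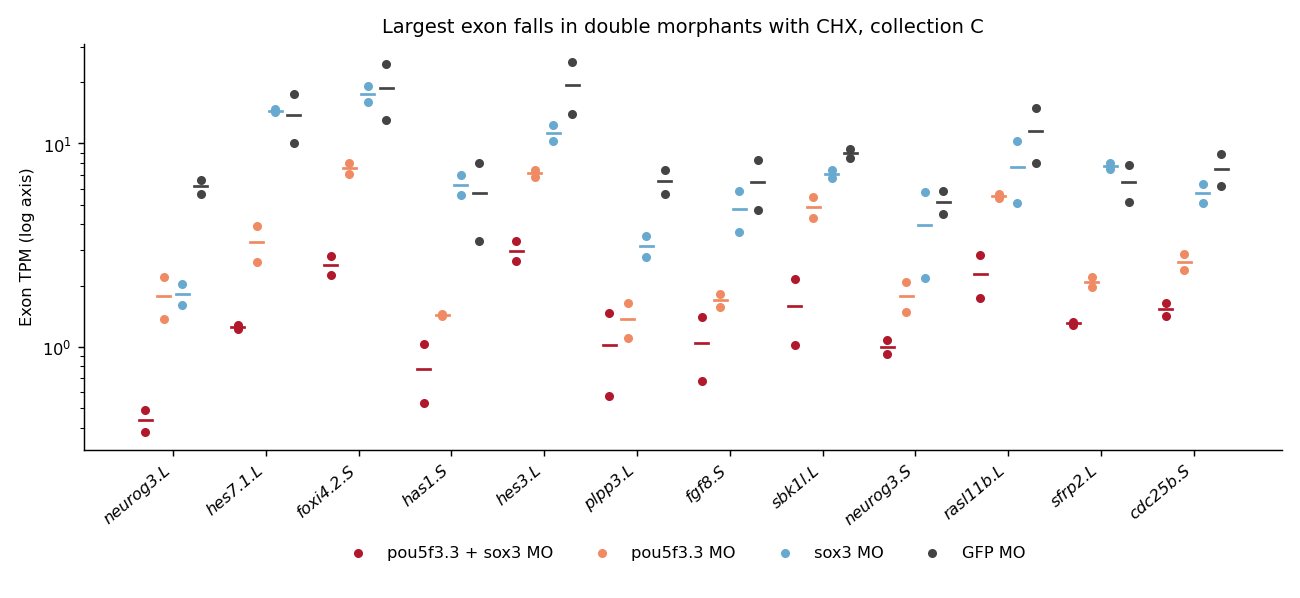
Exon levels (TPM, log axis) of the 12 genes with a symbol and at least 5 TPM whose exons fell furthest, with 1 point per library and a dash at each mean, for double, pou5f3.3, sox3 and GFP MO embryos in CHX. Double morphant points lie below the GFP MO points for each of the 12 genes, as for neurog3.L at 0.381 and 0.490 TPM against 5.66 and 6.64 TPM.

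In introns the falls could reach the point where no reads were left. The introns of nedd9.S, which codes for a scaffold protein of cell adhesions, were at 0.009 and 0 RPKM in double morphants, against 0.592 and 0.745 RPKM in GFP MO embryos. Its depth-scaled read counts were 160-fold lower in double morphants, with a 95% interval of 43.9 to 1320 that covers counting error only. The introns of rgcc.L, a regulator of the cell cycle, were at 0 and 0.033 RPKM against 1.22 and 2.15 RPKM (adjusted p = 2.13e-13). Introns of the Wnt-responsive gene sp5l.S and of the MAP kinase phosphatase gene dusp1.S gave no reads in either double morphant library, against 0.680 and 0.781 RPKM and 0.162 and 0.875 RPKM in GFP MO embryos. With a floor of 3 counts per library these were at least 3.9-fold lower for sp5l.S and at least 3.18-fold lower for dusp1.S, and neither call held without GFP MO replicate 2 (adjusted p = 0.0711 and 0.631) or without either double morphant library.

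Some genes with a large stored mRNA pool were called lower in introns and not in exons. The introns of tdgf1.3.L, an EGF-CFC co-receptor of Nodal signalling, were at 0.039 and 0.037 RPKM in double morphants, against 0.939 and 1.05 RPKM in GFP MO embryos, 26.3-fold lower in depth-scaled reads (counting interval 6.95 to 223). Its exons were at 142 TPM in both double morphant libraries and at 168 and 161 TPM in the GFP MO libraries, a log2 difference of −0.19 (adjusted p = 0.344). The actin-binding gene lima1.S had introns at 0.040 and 0.042 RPKM against 0.342 and 0.457 RPKM (log2 −3.25, SE 0.27), and exons at 169 and 178 TPM against 180 and 175 TPM.

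Introns were called lower, and exons were not, for rrm2.2.L, a subunit of ribonucleotide reductase, whose introns were lower at a log2 of −2.14 (SE 0.34, adjusted p = 1.45e-05) while its exons were at 627 and 614 TPM in double morphants, against 636 and 628 TPM in GFP MO embryos. Introns of the Notch ligand gene jag1.L were lower by −2.47 on the log2 scale (SE 0.29), while its exons differed by 0.00. Introns of the splicing factor gene srsf7.L (log2 −2.17) and of the stress-response gene sesn2.L (log2 −2.71) were lower, with exon differences of −0.59 and −0.13. The exon difference of srsf7.L had an adjusted p of 0.0102 and was below the size needed for a call. Over the 68 exon entries of maternal first-wave genes that were themselves higher with CHX than with triptolide, the median log2 difference was −0.529 and 89.7% were below 0. Of all exon entries 43.7% were below 0.

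The 73 genes that were lower and higher with CHX in collection B, but not activated in vehicle, included factors of later neural and somite development. The neural homeobox gene gsx1.L was at 0.367 and 0.283 TPM in double morphants, against 2.99 and 4.16 TPM in GFP MO embryos (log2 −3.42, adjusted p = 9.05e-07), and dmrt2.L, a doublesex-related gene, was at 0.274 and 0.727 TPM against 3.19 and 6.39 TPM (log2 −3.23, adjusted p = 9.36e-09). The double morphants were below the GFP MO embryos in every library for both genes. The number of such genes was 23 without GFP MO replicate 2, 30 without double MO replicate 1 and 39 without double MO replicate 2, and 36 in DESeq2.

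Gene lists for the germ layers and signalling pathways gave shares above the 2.17% of all genes. Of 89 ectoderm and neural genes tested 18 were lower (20.2%), of 46 organizer and Wnt target genes 10 (21.7%), of 51 ventx and BMP pathway genes 11 (21.6%), and of 59 genes of FGF, Notch and signal feedback 12 (20.3%). Mesendoderm and nodal genes were lower in 8 of 74 cases (10.8%) and pluripotency factors and maternal activators in 6 of 55 (10.9%). No member of any list was called higher. First-wave genes made up 49, 31, 42, 38, 47 and 24 members of these 6 lists in the same order, and every lower member was one of them. The share lower among all first-wave genes was 15.4%, so part of each list's share above 2.17% goes with its first-wave members. Intron entries, called more often than exon entries, were present for 61, 38, 45, 41, 61 and 43 genes of these lists in the same order. Of all 27602 genes tested 9916 had an intron entry, so the list shares and 2.17% do not compare like with like.

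The other lists had smaller shares. Genes of the cell cycle and checkpoint were lower in 4 of 68 cases (5.88%), genes of p53, stress and early response in 4 of 59 (6.78%), translation and housekeeping genes in 6 of 73 (8.22%) and germ plasm and oocyte genes in 1 of 42 (2.38%). Among the first-wave members of these lists 4 of 24, 3 of 17, 6 of 32 and 1 of 8 were lower, in the same order. Of all first-wave genes 15.4% were lower. Intron entries were present for 55, 34, 69 and 19 genes of these lists, in the same order. All 6 translation and housekeeping calls were intron entries, and the exon median of that list was 0.055. Median intron differences were −1.936 for organizer and Wnt genes, −0.914 for mesendoderm and nodal genes, −1.307 for ectoderm and neural genes, −1.100 for FGF and Notch genes, −0.943 for ventx and BMP genes and −0.185 for germ plasm genes, against −0.353 for all introns. With the floor of 3 counts they were −0.824 for organizer and Wnt genes, 0.0 for mesendoderm and nodal genes and −1.296 for ectoderm and neural genes. They were −1.100 for FGF and Notch genes, −0.773 for ventx and BMP genes and −0.185 for germ plasm genes. The median over all introns with this floor was −0.194.

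These counts depended on single libraries. Without GFP MO replicate 2 they were 10 for ectoderm and neural, 3 for organizer and Wnt, 4 for ventx and BMP, 5 for FGF and Notch, 3 for mesendoderm, 4 for pluripotency, 3 for cell cycle, 2 for stress, 1 for germ plasm and 0 for translation genes. Without double MO replicate 1 they were 9, 7, 4, 5, 5, 6, 3, 2, 1 and 5 in the same order, and without double MO replicate 2 they were 18, 11, 7, 9, 6, 6, 3, 3, 1 and 3. They were 23, 11, 15, 12, 7, 6, 4, 4, 1 and 6 without GFP MO replicate 1.

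**Figure D3:**
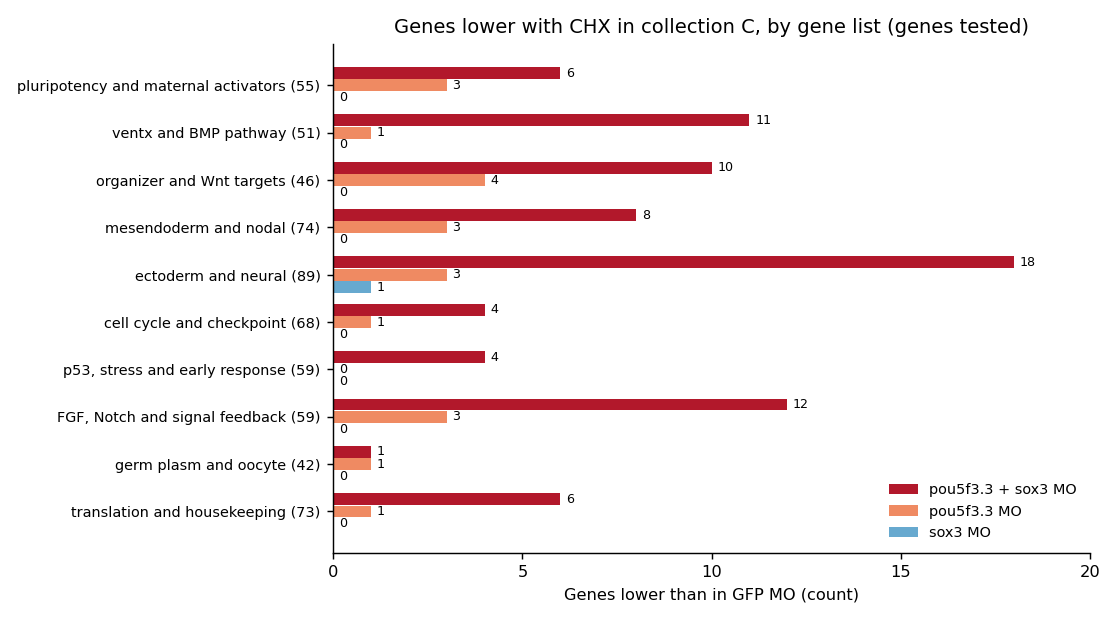
Number of genes of each list (genes tested in parentheses) that were lower than in GFP MO embryos with CHX in collection C, for double (dark red), pou5f3.3 (orange) and sox3 (blue) morphants. Double morphants have 18 ectoderm and neural genes and 12 FGF and Notch genes lower, while sox3 morphants have 1 lower gene over all lists.

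Named members showed the range within the lists. In the ectoderm list tfap2a.S, an AP-2 factor of epidermis and neural crest, was at 0.189 and 0.327 TPM in double morphants, against 3.66 and 4.74 TPM in GFP MO embryos (log2 −3.98, SE 0.34, adjusted p = 2.09e-12). The homeolog tfap2a.L was at 1.78 and 2.36 against 5.07 and 8.58 TPM (log2 −1.71, adjusted p = 4.20e-06), below the size for a call without GFP MO replicate 2 (log2 −1.26). In the BMP list the T-box gene tbx2.S was at 1.24 and 1.49 TPM against 5.29 and 7.56 TPM (log2 −2.21, adjusted p = 7.95e-10).

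In the organizer list the otx-related homeobox gene crx.L was at 0.083 and 0.080 TPM in double morphants, against 1.60 and 2.16 TPM in GFP MO embryos (log2 −4.38, adjusted p = 0.000209). In the pluripotency list the introns of lin28a.S, an RNA-binding protein that blocks let-7 maturation, were at 0.005 and 0.022 RPKM against 0.215 and 0.270 RPKM (log2 −4.12, adjusted p = 1.37e-08). The stress gene gadd45a.L was at 7.06 and 9.04 TPM against 25.1 and 33.2 TPM (log2 −1.84, adjusted p = 3.21e-09). The cyclin gene ccna1.L, the most abundant of the cell cycle list, differed by 0.01 on the log2 scale (adjusted p = 1).

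Homeologs did not always share a call. In 685 pairs with both copies in the first wave, both copies were lower in 64 pairs, the L copy alone in 93 and the S copy alone in 48. In the first wave 266 of 1514 L genes (17.6%) and 160 of 1162 S genes (13.8%) were lower, beside 15.4% of all its genes. These counts were 127 L and 76 S genes without GFP MO replicate 2, and 160 L and 88 S genes without double MO replicate 1. In collection D, described below, both copies of the same 685 pairs were lower in 377, L alone in 121 and S alone in 99. There 61.0% of first-wave L genes and 59.6% of first-wave S genes were lower. A call in 1 copy does not show that its partner differed from it, because no test compared the L and S copies.

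Single MOs of the same collection were set against the same GFP MO libraries, so these comparisons share their controls. With pou5f3.3 MO alone 185 genes were lower (0.67%) and 6 higher (0.0217%), and 159 of the lower genes were first-wave. With sox3 MO alone 5 genes were lower (0.0181%), all first-wave, and 0 were higher by edgeR and by DESeq2. Of 37518 entries, 953 were lower and 741 higher at an unadjusted p below 0.05 in edgeR, numbers of a size that can arise without any difference. Without GFP MO replicate 2 the lower counts were 42 for pou5f3.3 MO and 0 for sox3 MO, where 724 entries were lower at an unadjusted p below 0.05. The pou5f3.3 MO count was 83 without pou5f3.3 MO replicate 1, and the sox3 MO count was 2 without sox3 MO replicate 1, 0 without sox3 MO replicate 2 and 13 without GFP MO replicate 1.

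Over first-wave introns the median log2 difference from GFP MO embryos was −0.819 in double, −0.524 in pou5f3.3 and −0.064 in sox3 morphants. Over first-wave exons it was −1.002, −0.722 and −0.098. The pou5f3.3 median was −0.333 for introns and −0.385 for exons without GFP MO replicate 2. The sox3 median was positive without GFP MO replicate 2, at 0.145 for introns and 0.146 for exons. Between the double and the single morphants directly, 19 genes were lower in double than in pou5f3.3 morphants (0.0688%), 15 of them first-wave, and 1 was higher (0.00362%). The 19 became 3 without pou5f3.3 MO replicate 1, 7 without its replicate 2, 2 without double MO replicate 1 and 0 without double MO replicate 2. In double against sox3 morphants 329 genes were lower (1.19%), 290 of them first-wave, and 4 were higher (0.0145%), and the lower count was 146 without double MO replicate 1, 218 without double MO replicate 2 and 213 without sox3 MO replicate 2.

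The joint change was then compared with the sum of the single changes on the log2 scale, an interaction term in the same fit. No gene departed from the sum in either direction at the thresholds used (0%), with 1023 of 37518 entries below and 626 above it at an unadjusted p below 0.05 and a smallest adjusted p of 0.0536 in edgeR. DESeq2 called 2 genes below the sum and 0 above it. Over first-wave introns the median of joint minus sum was −0.257, with quartiles of −0.827 and 0.312 and a median SE of 0.758 per entry. Over first-wave exons the median was −0.206, with quartiles of −0.919 and 0.480 and a median SE of 0.896. At an unadjusted p below 0.05, 235 of 2958 first-wave introns lay below the sum and 41 above it, and 55 of 627 first-wave exons below and 10 above. Over all entries, 460 of 9916 introns lay below and 221 above, and 563 of 27602 exons below and 405 above. Of all exon and intron entries, 4.4% had such a p, a share that can arise without any departure. That share does not describe the first-wave entries, of which more lay below the sum than above it at this p. Whether the first-wave imbalance can arise without any departure was not tested.

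These medians moved with the GFP MO libraries. Without GFP MO replicate 1 they were −0.146 for introns and −0.098 for exons, and without replicate 2 they were −0.482 and −0.541. Without double MO replicate 2 they were −0.417 and −0.405. Deeper entries gave the term more precision. In the 120 first-wave introns with a mean of at least 100 counts, the median of joint minus sum was −0.317 with a median SE of 0.306. At an unadjusted p below 0.05, 31 of them lay below the sum and 0 above it. These entries share the same 8 libraries, so they are not independent of each other. Their median was not recomputed with a library left out.

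**Figure D4:**
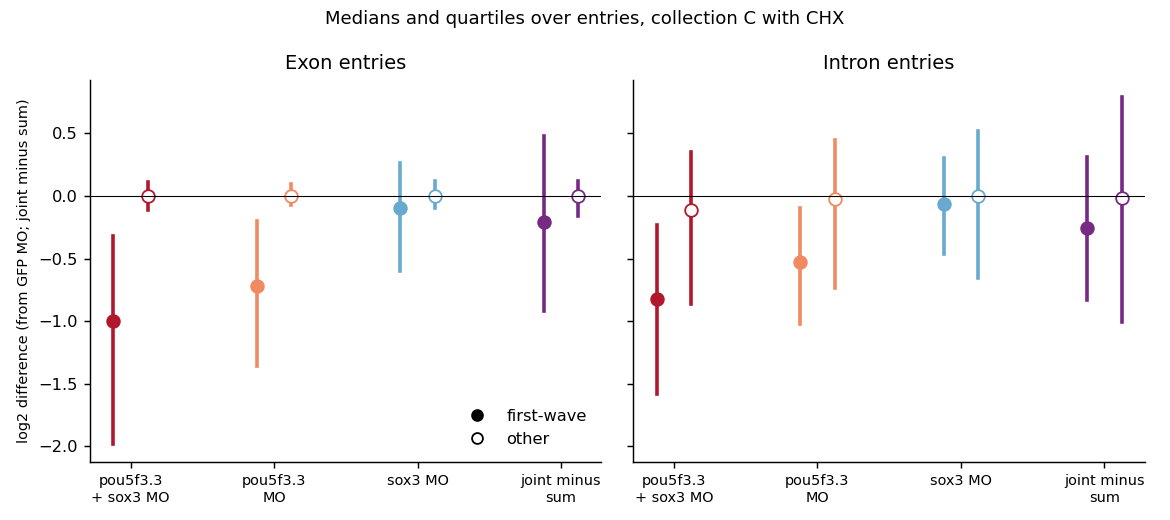
Median (point) and quartiles (line) over entries of the log2 difference from GFP MO embryos for double, pou5f3.3 and sox3 morphants, and of the joint difference minus the sum of both single differences (y axis, log2), for exons (left) and introns (right) in collection C with CHX. Filled points are first-wave entries, with medians of −1.002 and −0.819 in double morphants, and open points are all other entries.

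The entries with the smallest p for this term were not called either. They were picked by that p, so their differences and intervals tend to overstate the departure. Exons of tfap2a.S were at 0.189 and 0.327 TPM in double morphants, at 1.59 and 1.3 TPM in pou5f3.3 morphants, at 4.78 and 3.77 TPM in sox3 morphants and at 3.66 and 4.74 TPM in GFP MO embryos. The sox3 morphants overlapped the GFP MO embryos, and the double morphants lay below the pou5f3.3 morphants in both libraries. The joint difference was −3.98 against a sum of −1.48, and joint minus sum was −2.50 (SE 0.47, 95% interval −3.45 to −1.55, adjusted p = 0.0536). Introns of lfng.L, a fringe glycosyltransferase that modifies Notch, were at 0.352 and 0.248 RPKM in double, 0.891 and 0.820 in pou5f3.3, 1.61 and 1.69 in sox3 and 1.5 and 1.88 RPKM in GFP MO embryos. Joint minus sum was −1.48 for lfng.L (SE 0.28, interval −2.05 to −0.92, adjusted p = 0.0536).

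Other entries of this kind were further from the threshold. For cdc25b.L, exons were at 8.45 and 8.75 TPM in pou5f3.3 and at 14.5 TPM in both sox3 morphant libraries, and joint minus sum was −0.99 in exons (SE 0.25, adjusted p = 0.386) and −0.99 in introns (SE 0.22, adjusted p = 0.200). The direct difference of double from pou5f3.3 morphants was −1.16 in cdc25b.L exons (SE 0.20, adjusted p = 0.00178), short of the size needed for a call. It uses libraries that also enter the term by which these entries were picked, so it is not independent of that choice. For gene35084 the pou5f3.3 morphants were at 79.9 and 79.6 TPM and the sox3 morphants at 242 and 227 TPM, and joint minus sum was −0.93 (SE 0.21, adjusted p = 0.200). Introns of the integrin gene itga6.L gave −1.76 (SE 0.40, adjusted p = 0.200).

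**Figure D5:**
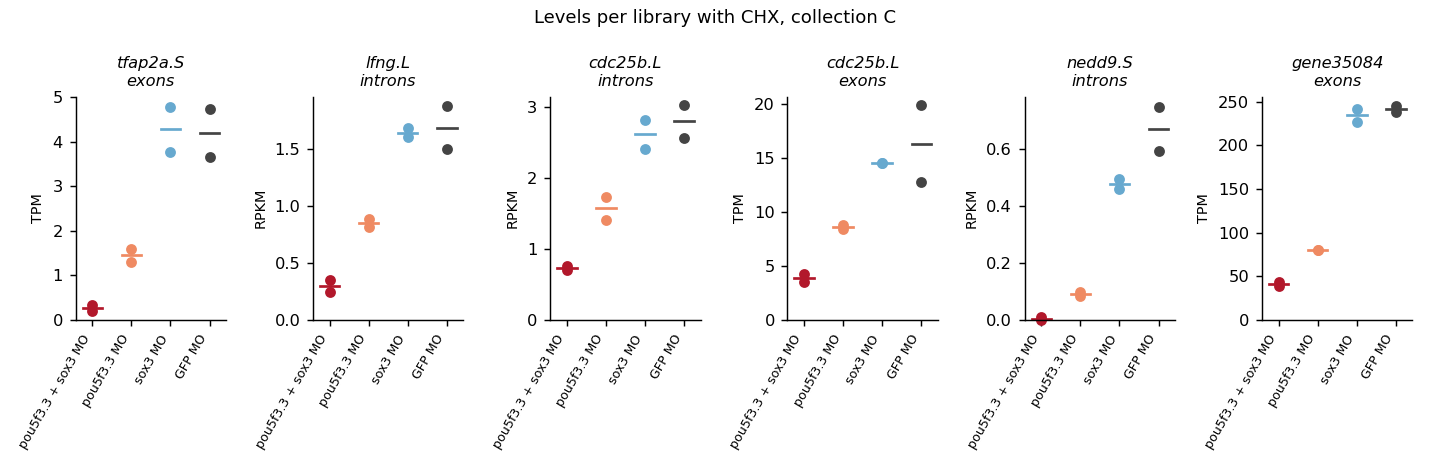
Exon (TPM) or intron (RPKM) levels of 5 genes, chosen after their values were seen, in double, pou5f3.3, sox3 and GFP MO embryos with CHX, with 1 point per library and a dash at each mean. In each panel the double morphants lie below the pou5f3.3 morphants, as for tfap2a.S exons at 0.189 and 0.327 TPM against 1.59 and 1.3 TPM.

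For the genes called with sox3 MO alone, as for all genes, no departure from the sum was called. Exons of neurog3.L were at 1.37 and 2.19 TPM in pou5f3.3 and 1.61 and 2.04 TPM in sox3 morphants, with single differences of −1.79 and −1.74 and a joint difference of −3.76. Joint minus sum was −0.23 for neurog3.L, with a 95% interval of −1.69 to 1.23. For the protocadherin gene pcdh8.L, at 0.483 and 0.388 TPM in double, 1.03 and 1.16 in pou5f3.3, 0.552 and 0.691 in sox3 and 2.07 and 2.49 TPM in GFP MO embryos, the sox3 difference was −1.86 and joint minus sum was 0.54 (interval −0.61 to 1.70). Introns of the collagen gene col18a1.L gave single differences of −2.12 with pou5f3.3 MO and −1.67 with sox3 MO, and joint minus sum was 0.18 (interval −1.22 to 1.58). These intervals leave room for departures in either direction. The genes were picked by a sox3 difference that is itself part of the sum, so their values cannot decide whether they departed from it.

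The other genes called with sox3 MO alone were prdm1.S, a zinc finger repressor, and gene40572, which has no symbol. Introns of prdm1.S were at 0.014 and 0.007 RPKM in double, 0.011 and 0.013 in pou5f3.3, 0.028 and 0.022 in sox3 and 0.126 and 0.197 RPKM in GFP MO embryos. The double and pou5f3.3 morphants overlapped for prdm1.S. Introns of gene40572 gave no reads in the double morphants, against 0.056 and 0.114 RPKM in GFP MO embryos, at least 8-fold lower with the floor of 3 counts.

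More genes were called at a higher dose in another collection. Collection D held 2 libraries of embryos with 55 ng of pou5f3.3 MO and 75 ng of sox3 MO and 2 with 80 ng of GFP MO, all in CHX, so dose and collection cannot be told apart. Unlike in collection C, the double morphants of collection D also received more MO in total than their controls. Loss of the targets and total MO mass therefore cannot be told apart in collection D. There 2219 genes were lower (8.04%) and 17 higher (0.0616%), and 1867 of the 3199 first-wave genes were lower (58.4%). The median log2 difference was −2.200 over first-wave introns and −2.438 over first-wave exons, beside −0.819 and −1.002 in collection C. The difference between collections was not tested.

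These collections share no libraries. Of the 599 genes lower in collection C, 494 were also lower in collection D, which is 82.5% of the collection C list and 22.3% of the collection D list, and 0 were higher there. The shared count was 238 without GFP MO replicate 2 of collection C and 287 without its double MO replicate 1. In the class of genes higher with CHX but not activated in vehicle, 49 of the 73 genes were lower in both. Of all 730 genes of that class, 205 were lower in collection D (28.1%), beside 8.04% of all genes tested. At the higher dose 466 of 765 zygotic (60.9%) and 1401 of 2434 maternal first-wave genes (57.6%) were lower, beside 25.4% and 12.3% in collection C. The sox2.L difference was −2.97 in collection D and −1.16 in collection C.

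The other 105 genes lower in collection C were not called in collection D. Among them, the stress-response factor ddit3.L was at 0.290 and 0.280 TPM in double morphants, against 0.843 and 1.77 TPM in GFP MO embryos of collection C (log2 −2.16, adjusted p = 0.0433), and its difference in collection D was 1.23 (adjusted p = 0.335). The ddit3.L call in collection C was lost without double MO replicate 1 (adjusted p = 0.283), double MO replicate 2 (adjusted p = 0.304) or GFP MO replicate 2 (adjusted p = 0.756), and in DESeq2 (adjusted p = 0.149). The gene cdc25b.S counted as lower in both collections through its introns, which were lower by −2.65 in collection C and −4.56 in collection D, while its exons, lower by −2.28 in collection C, differed by −0.64 in collection D (adjusted p = 0.0895).

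Without CHX, the same MO pair was injected at 40 ng each with 40 ng of GFP MO in collection G, against 120 ng of GFP MO, with 3 libraries a group. In these embryos 400 genes were lower (1.45%) and 940 higher (3.41%). Of the 599 genes lower in collection C, 103 were lower (17.2% of the collection C list, 25.8% of the collection G list) and 31 were higher (5.18% and 3.3%). Over first-wave introns the median log2 difference was 0.579 without CHX, beside −0.819 with it, and over first-wave exons it was 0.257 beside −1.002. Over all introns the median was 0.511 without CHX and −0.353 with it, so most of the intron rise without CHX was not particular to first-wave entries. Over all exons it was −0.093 and 0.0. CHX, the stage that the embryos reached in it, and collection cannot be told apart in this pair.

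Single genes took different courses without CHX. Exons of tfap2a.S were lower by −3.08 without CHX and by −3.98 with it, and introns of nedd9.S by −4.77 and −7.14. Exons of id3.S, an inhibitor of bHLH factors, were higher by 2.00 without CHX (adjusted p = 6.1e-17), while with CHX they were at 6.33 and 6.63 TPM in double morphants and at 13.2 and 18.0 TPM in GFP MO embryos (log2 −1.25, adjusted p = 0.00385).

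The 11 genes that were higher in double morphants with CHX were mostly low in reads, and 6 have a symbol. Each of the 6 lost its call without at least 1 library. Exons of smad4.S, which codes for the common SMAD of TGF-beta and BMP signalling, were at 131 and 670 TPM in double morphants, against 17.8 and 22.1 TPM in GFP MO embryos (log2 4.34, SE 1.13, adjusted p = 0.0187). This gene also differed between libraries of 1 group elsewhere, at 45.8 and 280 TPM in sox3 morphants and at 322 and 13.1 TPM in the high-dose double morphants, and the smad4.S call was lost without GFP MO replicate 1 (adjusted p = 0.199), GFP MO replicate 2 (adjusted p = 0.265) or double MO replicate 2 (adjusted p = 0.499). Its homeolog smad4.L was at 3.4 and 2.71 TPM in double morphants and 2.85 and 2.71 TPM in GFP MO embryos.

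The protocadherin gene pcdh10.S was higher in introns, at 0.100 and 0.096 RPKM in double morphants and at 0.033 and 0.014 RPKM in GFP MO embryos (log2 2.09, SE 0.41, adjusted p = 0.000695). Its exons were at 1.2 and 1.11 TPM against 0.448 and 0.242 TPM (log2 1.78, adjusted p = 0.0519). The intron call of pcdh10.S was lost without GFP MO replicate 2 (adjusted p = 0.132), and in collection D its introns were lower (log2 −1.60). The other 4 with a symbol were znf609.L, wasf1.L and abcf3.L in introns and mmp28.L in exons.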

How the data were processed

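Stranded RNA-seq libraries of whole embryos, depleted of rRNA, were mapped by the authors with HISAT2 (2.2.1 in the submitters' processing notes) to the X. laevis v9.2 genome, and reads were assigned with featureCounts (2.0.1) by strand to exons and to introns cleared of regions covered by reads at stage 5. The authors deposited exon and intron read counts, exon TPM and intron RPKM per library, and all 4 kinds of value were used as deposited. Exon counts of the 8 libraries of collection C ran between 12666361 and 16391374.

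Counts were tested with edgeR 4.0.16 in R 4.3.3 (TMM scaling, quasi-likelihood F-test), with exon and intron entries as separate rows and 1 coefficient for each of 26 groups over 53 libraries. The 7 libraries of collection H were left out. Exon entries needed a CPM of 0.5 in a library, and intron entries more than 10 counts and 0.25 RPKM in the same library, which left 27602 exon and 9916 intron entries. Benjamini-Hochberg adjustment ran over all 37518 entries. The fit was also run on simulated counts, drawn independently for each entry. They carry no shift shared by the first-wave entries of a library, so they do not test its effect. Deviations of libraries labelled with the same replicate number were at most weakly correlated between groups (−0.037 to 0.106), and replicates of a group differed by more than sampling noise. DESeq2 1.42.0, other scalings, filters and left-out libraries were alternatives.

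Genes were named by rule: the targets and relatives, the 12 furthest called exon changes in each direction with at least 5 TPM and their homeologs, the 5 furthest intron changes with at least 0.5 RPKM, and the list members with the smallest p or the highest TPM. Further genes were named after their values were seen. The comparison, the lists and the tests were chosen with earlier results of these data known. Gene symbols came from the files, where 26691 of 49580 genes have none. Morpholino and gene sequences were not used here.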

Additional observations from a re-analysis of the deposited data

How the results depend on the processing

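Counts of genes called in each comparison that moved by more than 1.5 times are given here after the edgeR count with all libraries, and the range that ends each list is over fits with 1 library left out. Genes higher in double morphants (11) became 20 with edgeR's legacy test and 20 with no filter on low counts, 7 in collection C alone and 3 to 11 when 1 library was left out. Genes lower in double morphants (599) were 563 to 764 under other scalings, tools, filters and fold thresholds and in collection C alone and 257 to 679 with a library left out. The share of first-wave genes lower (15.4%) became 17% with the legacy test, 19.7% with a log2 size of at least 1 and 7.03% to 17.3% with a library left out. For pou5f3.3 MO, 185 lower genes became 42 to 273 with a library left out, and 6 higher genes became 2 in DESeq2 and 0 to 3. For sox3 MO, 5 lower genes became 17 with no filter, 1 in DESeq2 and 0 to 13, and 0 higher genes became 2 with no filter and 1 in collection C alone. Genes below the sum (0) became 2 with the legacy test, 3 with no filter, 1 in collection C alone, 2 in DESeq2 and 0 to 3 with a library left out. Double below pou5f3.3 MO (19) became 32 with the legacy test, with no filter and in DESeq2, and 0 to 7. Double above pou5f3.3 MO (1) became 3 with the legacy test, 7 with no filter, 4 in collection C alone, 4 in DESeq2 and 0 to 1. Double below sox3 MO (329) became 146 to 249 and double above it (4) became 2 in DESeq2 and 1 to 6. In collection D, 17 higher genes became 8 in DESeq2, while the lower count stayed at 1626 to 2700. The cause was not tested. Where a library was left out, the remaining one was assumed to vary like the other groups.

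With the replicate block in collection C alone, 590 genes were lower, among them 15.8% of first-wave genes, and 7 higher in double morphants, 1 lay below the sum, sox3 MO had 1 higher gene, and 33 were below and 5 above pou5f3.3 MO. The labels do not say that a replicate number marks a shared clutch or day.

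Of 116 named entries that were called, 64 kept the call under each alternative, 51 lost it without at least 1 library and 13 under another setting. Medians over first-wave entries and counts by class and list were recomputed under the same settings, which was decided after seeing the data. The medians for double morphants lay between −1.264 and −0.707 for exons and between −0.981 and −0.617 for introns. Low intron counts and 2 libraries a group limit the interaction term, whose SE had a median of 0.721 over entries called lower. The difference in intron share, −0.486 percentage points, was −0.385 over the entries kept by the filter.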
